A study of Rattus norvegicus with 8 samples.

Results

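The genes described are 10 inflammatory cytokine genes of the interleukin-1 (IL-1), tumour necrosis factor (TNF) and related families, chosen by name, among 14506 genes measured in fetal rat pancreatic islets. They are Il1a, Il1b, Il1rn, Il1r1, Il6, Tnf, Il18, Il33, Csf1 and Mif, and each was read from a single probe set that the platform annotation assigns to 1 gene. The islets came from fetuses of timed pregnant Sprague-Dawley dams. On embryonic day 18, 4 dams had surgery to induce intrauterine growth restriction (IUGR), and the other 4 had a sham operation. Islets were taken on embryonic day 19 and pooled over a whole litter, so that each of the 8 arrays stands for 1 litter of 1 dam, with 4 IUGR litters and 4 sham litters. Both groups had surgery, and the labels do not describe the IUGR operation further or give the sex of the fetuses.

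IL-1 alpha and IL-1 beta bind the same receptor, IL-1 receptor type 1, which recruits an accessory chain and the adaptor MyD88 and ends in activation of the transcription factor NF-kB. The IL-1 receptor antagonist occupies the same receptor without starting a signal. TNF reaches NF-kB through its own receptors, and IL-1 beta and TNF together are known to impair insulin secretion and survival of beta cells in culture. Much of the IL-1 beta, TNF and CSF1-dependent signalling of a tissue belongs to its macrophages, so that in a whole islet preparation these transcripts can come from endocrine, immune, vascular or stromal cells.

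Expression is given as RMA (robust multi-array average) values on the log2 scale. The probe set median was 7.70 to 7.81 on the 8 arrays. The hormone genes marked the tissue, with Ins1 between 13.15 and 14.01, Ins2 between 13.67 and 14.24 and Gcg between 13.33 and 13.94. The table holds no detection calls, so each gene was set against 2 levels of its own array. The first was the array floor, taken as the 5th percentile of all probe sets, which lay between 5.34 and 5.37 for IUGR arrays and between 5.37 and 5.48 for sham arrays. The second was the 95th percentile of 53 olfactory receptor genes, a family not known for expression in pancreas. Its IUGR values lay between 6.60 and 6.72. Sham replicate 1 had 6.62, whereas sham replicates 2, 3 and 4 had 8.18, 7.66 and 7.97. Dim probe sets thus lay higher in 3 of the 4 sham litters, which bears on every dim gene below, and its part in the differences was not tested. In bulk islets, fewer cells of a type and less RNA per cell cannot be told apart.

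None of the 10 cytokine genes passed the threshold of an adjusted p under 0.05 between IUGR and sham litters (limma, adjusted over all 14506 genes). Over all genes 0.248% passed, 0.234% higher and 0.0138% lower in IUGR. At an unadjusted p under 0.05 there were 4 of the 10 genes, against 26.1% of all genes. Of these 4, Il1a, Il1rn and Mif were higher in IUGR, as were 15.4% of all genes, and Csf1 was lower, as were 10.7%. The litters of the IUGR and sham groups were fully separate for 2 of the 10, Il1rn and Mif, both higher in IUGR. All genes gave 15.5% by that measure, 10% higher and 5.45% lower in IUGR. Of the 10 genes 7 were higher in IUGR by any amount, against 55.1% of all genes, with a median difference of 0.15 on the log2 scale beside 0.038 over all genes. On all 8 arrays 6 of the 10 lay above the olfactory receptor level, against 52.8% of all genes. Across the 8 litters the 10 genes spread widely, with a median range of 1.38 on the log2 scale beside 0.72 for all genes.

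**Figure D1:**
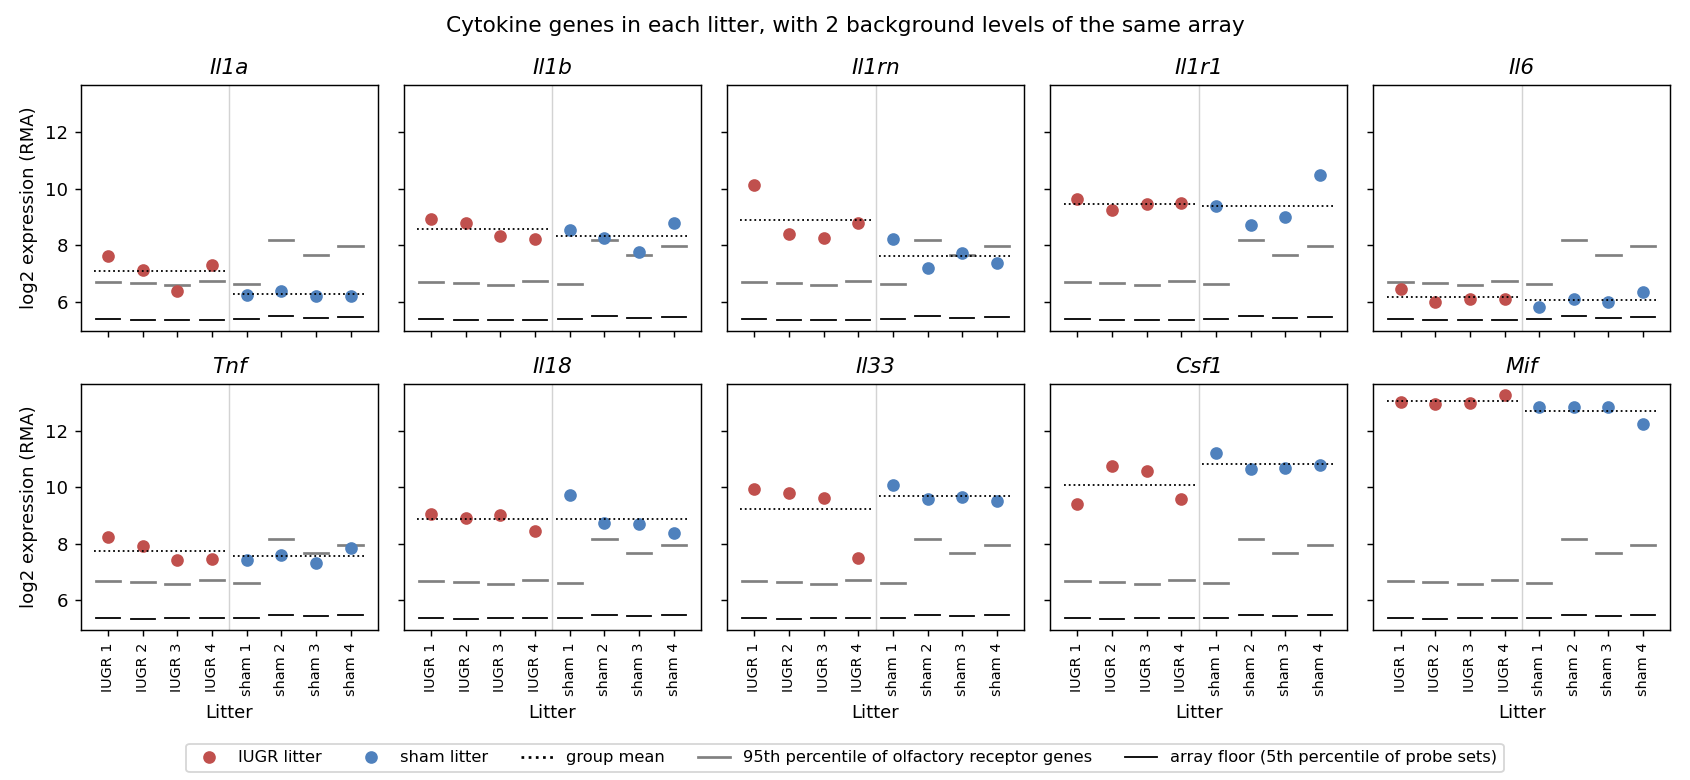
Log2 expression (vertical axis) of each of the 10 cytokine genes in the 4 IUGR litters (red) and 4 sham litters (blue), with dotted lines at the group means, black dashes at the array floor (5th percentile of probe sets) and grey dashes at the 95th percentile of the olfactory receptor genes. Il6 lies under the grey dash in all 8 litters and Mif lies far above it in all 8, while the grey dash itself is higher in sham replicates 2, 3 and 4 than in the other 5 litters.

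The agonist gene Il1b lay above the olfactory receptor level in every litter, and the agonist gene Il1a did so in IUGR litters only, in 3 of 4. Il1a, which encodes IL-1 alpha, an alarmin that is active as its precursor, had log2 values of 7.61, 7.11, 6.37 and 7.30 in IUGR replicates 1 to 4 and of 6.25, 6.38, 6.21 and 6.19 in sham replicates 1 to 4. The highest sham litter lay just above the lowest IUGR litter, so that the groups overlapped by that 1 litter, and the sham litters were close together. Il1a averaged 7.10 ± 0.53 in IUGR litters and 6.26 ± 0.087 in sham litters (SD, n = 4 each), a difference of 0.84 ± 0.24 (SE) that missed the threshold (limma adjusted p = 0.121). Its distance from the array floor was 1.01 to 2.24 in IUGR litters and 0.72 to 0.90 in sham litters. Il1a lay above the 95th percentile of the olfactory receptor genes in 3 of 4 IUGR litters and in 0 of 4 sham litters. In the sham litters the gene is therefore within the range of genes read as background, and a fold change between the groups is uncertain. Sham replicate 1, whose background matched that of the IUGR litters, had 6.25 against a background of 6.62.

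Il1b encodes IL-1 beta, the secreted agonist that caspase-1 cuts from its precursor. Its log2 values were 8.92, 8.77, 8.33 and 8.23 in IUGR replicates 1 to 4, against 8.53, 8.27, 7.76 and 8.78 in sham replicates 1 to 4. The groups overlapped almost fully, with the highest value in an IUGR litter and the lowest in a sham litter. Il1b averaged 8.56 ± 0.33 in IUGR litters and 8.34 ± 0.44 in sham litters (SD, n = 4 each), a difference of 0.22 ± 0.24 (SE, limma adjusted p = 0.566) that was -0.0071 after median centring. Its 95% interval ran from -0.34 to 0.78. Il1b lay above the olfactory receptor level on all 8 arrays, by 1.51 to 2.23 in IUGR litters and by as little as 0.088 in sham replicate 2.

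Il1a and Il1b are neighbours on the minus strand of chromosome 3, and the 250 bases before each start are shown because the pair shares a receptor and a place in the genome while only Il1b stood above background on every array. The windows are RefSeq sequence of rat assembly GRCr8, chr3:136990018-136990267 for Il1a and chr3:137036582-137036831 for Il1b, written 5′ to 3′ on the gene's strand, with capitals marking TATAAA on either strand. The Il1a window overlaps the annotated end of its gene (136990236).
Il1a: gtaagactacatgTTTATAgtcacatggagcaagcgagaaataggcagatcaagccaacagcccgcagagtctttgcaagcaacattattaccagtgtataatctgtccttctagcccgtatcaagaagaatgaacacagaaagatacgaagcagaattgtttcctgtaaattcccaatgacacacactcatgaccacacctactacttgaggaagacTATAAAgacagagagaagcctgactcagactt
Il1b: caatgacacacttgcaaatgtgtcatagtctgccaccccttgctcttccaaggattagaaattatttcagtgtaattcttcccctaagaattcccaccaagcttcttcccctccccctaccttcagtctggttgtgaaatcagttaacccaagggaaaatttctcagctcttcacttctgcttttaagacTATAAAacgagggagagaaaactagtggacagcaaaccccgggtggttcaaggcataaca
The forward match began 32 bases before the start in Il1a and 60 bases before it in Il1b. TATAAA on either strand occurred in 12.9% of 33465 windows of this length. A set of 3 motifs was searched on both strands, TATAAA, the cAMP response element TGACGTCA and the NF-kB consensus, and the last occurred in 3.54% of windows and in neither of these. A match is a description of letters and not a binding site.

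Il1rn encodes the IL-1 receptor antagonist and showed the largest difference of the 10 genes. Its log2 values were 10.12, 8.39, 8.24 and 8.78 in IUGR replicates 1 to 4 and 8.21, 7.18, 7.73 and 7.38 in sham replicates 1 to 4. Every IUGR litter lay above every sham litter, but the gap between the lowest IUGR and the highest sham litter was small, and IUGR replicate 1 stood well above the rest. Il1rn averaged 8.88 ± 0.86 in IUGR litters and 7.63 ± 0.45 in sham litters (SD, n = 4 each), a difference of 1.26 ± 0.42 (SE) with a 95% interval from 0.30 to 2.22. It missed the threshold (limma adjusted p = 0.138). The difference was 0.84 without IUGR replicate 1 and 0.68 when sham replicate 1 was the only sham litter. Il1rn lay above the olfactory receptor level in 4 of 4 IUGR litters and in 2 of 4 sham litters, by only 0.066 in sham replicate 3, so that a fold change between the groups is uncertain.

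The window before the RefSeq start of Il1rn, chr3:27520072-27520321 on the plus strand, lies inside the annotated span of the gene (27509836 to 27525738), which has further starts. It is shown beside its agonists because this gene had the largest difference, and capitals again mark TATAAA, here on the opposite strand.
Il1rn: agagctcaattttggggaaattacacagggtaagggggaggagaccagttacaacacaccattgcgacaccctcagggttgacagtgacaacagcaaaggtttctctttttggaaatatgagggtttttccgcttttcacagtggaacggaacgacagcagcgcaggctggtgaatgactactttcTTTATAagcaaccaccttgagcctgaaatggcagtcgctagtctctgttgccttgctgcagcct
Neither the cAMP response element nor the NF-kB consensus was found in it.

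The balance of antagonist and agonist within a litter was read as Il1rn minus Il1b on the log2 scale, a measure chosen after the values were seen. It shows unequal change only, since the levels of 2 probe sets cannot be set against each other. It was 1.21, -0.37, -0.09 and 0.55 in IUGR replicates 1 to 4 and -0.33, -1.08, -0.04 and -1.40 in sham replicates 1 to 4. The groups overlapped, and the difference of 1.03 between the group means had an exact two-sided permutation p of 0.143 over 70 arrangements, where 0.0286 is the smallest p possible.

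Il1r1 encodes the signalling IL-1 receptor, which beta cells are known to carry. Its log2 values were 9.62, 9.24, 9.45 and 9.51 in IUGR replicates 1 to 4 and 9.37, 8.70, 8.98 and 10.49 in sham replicates 1 to 4. The IUGR litters were close together, and the sham litters spread to both sides of them, with sham replicate 4 the highest of all. Il1r1 averaged 9.45 ± 0.16 in IUGR litters and 9.38 ± 0.79 in sham litters (SD, n = 4 each). The difference was 0.069 ± 0.35 (SE, limma adjusted p = 0.912) and was -0.17 after quantile normalization, -0.16 after median centring and 0.44 without sham replicate 4. That litter also had the highest mean of the 8 islet hormone and granule markers (12.68, against 11.57 to 11.99 in IUGR litters and 11.39 to 11.46 in the other sham litters). It had the highest mean of 10 endothelial and 11 mesenchyme markers as well (11.61 and 12.32), and the part of these cells in the Il1r1 value was not tested.

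Il6 and Tnf sat low on the arrays. Il6, a cytokine that signals through the shared chain gp130, had log2 values of 6.44, 5.996, 6.10 and 6.08 in IUGR replicates 1 to 4 and 5.81, 6.08, 5.98 and 6.33 in sham replicates 1 to 4. All 8 litters lay within 1.07 of the array floor and below the olfactory receptor level, and the groups overlapped. Il6 was thus not told from background, and its difference of 0.10 ± 0.14 (SE, n = 4 each, limma adjusted p = 0.649), which was -0.13 after median centring, says nothing of the transcript. Tnf had 8.25, 7.92, 7.41 and 7.46 in IUGR replicates 1 to 4, against 7.44, 7.62, 7.32 and 7.86 in sham replicates 1 to 4. The 2 highest litters were IUGR replicates, while the other IUGR litters lay among the sham litters. Tnf averaged 7.76 ± 0.40 in IUGR litters and 7.56 ± 0.24 in sham litters (SD, n = 4 each). The difference was 0.20 ± 0.21 (SE, limma adjusted p = 0.549), with a 95% interval from -0.28 to 0.68, and it was -0.031 after median centring. Tnf lay above the olfactory receptor level in 4 of 4 IUGR litters and in 1 of 4 sham litters, that one being sham replicate 1.

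The IL-1 family members Il18 and Il33 lay above the olfactory receptor level on all 8 arrays. Il18, whose product is also cut by caspase-1 and is known for inducing interferon gamma, had log2 values of 9.06, 8.92, 9.04 and 8.47 in IUGR replicates 1 to 4 and 9.73, 8.73, 8.71 and 8.39 in sham replicates 1 to 4. The sham litters enclosed all IUGR litters, with sham replicate 1 the highest. The difference was -0.016 ± 0.28 (SE, n = 4 each, limma adjusted p = 0.975), and its direction varied with the setting. It was 0.26 without sham replicate 1, 0.065 on the scale of distance from the floor and 0.42 after subtraction of the olfactory receptor median. In the other direction it was -0.24 after quantile normalization, -0.25 after median centring and -0.86 with sham replicate 1 as the only sham litter. Sham replicate 1 also had the highest mean of 18 macrophage markers (10.48, against 8.92 to 9.90 in IUGR litters and 9.73 to 9.85 in the other sham litters).

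Il33 encodes a nuclear alarmin known from endothelial and stromal cells, read by the receptor chain of Il1rl1. Its log2 values were 9.95, 9.80, 9.63 and 7.50 in IUGR replicates 1 to 4 and 10.10, 9.58, 9.64 and 9.53 in sham replicates 1 to 4. IUGR replicate 4 stood far below the other 7 litters, which lay together. The difference was -0.49 ± 0.51 (SE, n = 4 each, limma adjusted p = 0.545) and 0.080 without IUGR replicate 4, so that its direction rested on that litter. IUGR replicate 4 also had the lowest mean of the 10 endothelial markers (10.55, against 11.12 to 11.16 in the other IUGR litters and 10.95 to 11.61 in sham litters). Its mean of the 11 mesenchyme markers was lowest too (10.60, against 11.51 to 11.69 in the other IUGR litters and 11.72 to 12.32 in sham litters). The part of these cells in the Il33 value was not tested. The genes whose deviations over the 8 litters lay closest to those of Il33 were Clic5 and Samd9l, each with a mean absolute difference of 0.25 on the log2 scale. Being picked from all genes by that likeness, they add no further evidence about Il33.

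Csf1 was the member of largest negative difference. It encodes macrophage colony stimulating factor, the growth factor that macrophages need. Csf1 had log2 values of 9.41, 10.76, 10.59 and 9.59 in IUGR replicates 1 to 4 and 11.22, 10.66, 10.68 and 10.79 in sham replicates 1 to 4. IUGR replicates 1 and 4 lay far below every sham litter, IUGR replicate 3 just below the lowest of them and IUGR replicate 2 among them, so that the groups overlapped. Csf1 averaged 10.09 ± 0.69 in IUGR litters and 10.84 ± 0.26 in sham litters (SD, n = 4 each), a difference of -0.75 ± 0.32 (SE) that missed the threshold (limma adjusted p = 0.185). It was -0.31 after subtraction of the olfactory receptor median and -1.14 with sham replicate 1 as the only sham litter. The same litters stood low for macrophage markers, whose mean was 8.92, 9.88, 9.90 and 9.08 in IUGR replicates 1 to 4 and 10.48, 9.73, 9.85 and 9.77 in sham replicates 1 to 4. Of 18 macrophage markers 17 were lower in IUGR and 0 passed the threshold, with 14 above the olfactory receptor level on all 8 arrays. The genes whose deviations over the 8 litters were closest to those of Csf1 were Laptm5 and Lyz2, with mean absolute differences of 0.078 and 0.091. Both were picked from all genes by that likeness, so their litter values had to resemble those of Csf1 and add no further evidence. Lyz2, the lysozyme gene of myeloid cells, is itself among the macrophage markers, and had 11.15, 12.42, 12.10 and 11.22 in IUGR replicates 1 to 4 against 12.94, 12.54, 12.50 and 12.60 in sham replicates 1 to 4. The part of macrophage content in the Csf1 value was not tested.

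Mif encodes macrophage migration inhibitory factor, which beta cells are known to make and store beside insulin. Mif was near the top of every array, above 97.2% to 99.4% of genes. Its log2 values were 13.03, 12.94, 12.98 and 13.27 in IUGR replicates 1 to 4 and 12.85, 12.84, 12.84 and 12.23 in sham replicates 1 to 4. The groups did not overlap, although 3 of the sham litters lay just below the lowest IUGR litter and sham replicate 4 stood below the rest. Mif averaged 13.06 ± 0.15 in IUGR litters and 12.69 ± 0.31 in sham litters (SD, n = 4 each), a difference of 0.37 ± 0.16 (SE) that missed the threshold (limma adjusted p = 0.191). It was 0.21 without sham replicate 4 and 0.14 after median centring. The highest value of any probe set was 14.15 to 14.32 in IUGR litters and 14.38 to 14.44 in sham litters. RefSeq lists 9 Mif pseudogenes and 4 Mif-like genes in the rat, none of which had a probe set of its own here, and the probe set may read some of them.

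Il6, which was not told from background, and Mif, which was far above it, both carry the cAMP response element TGACGTCA, which 1.59% of windows hold, before their start, and these 2 windows are shown for that contrast. The window of Il6, chr4:5894576-5894825 on the minus strand, also holds a match to the NF-kB consensus, which begins 68 bases before the start. The window of Mif, chr20:12790107-12790356 on the plus strand, holds only the first, beginning 61 bases before the start, and lies inside the annotated span of the gene (12767138 to 12791222). Capitals mark these matches.
Il6: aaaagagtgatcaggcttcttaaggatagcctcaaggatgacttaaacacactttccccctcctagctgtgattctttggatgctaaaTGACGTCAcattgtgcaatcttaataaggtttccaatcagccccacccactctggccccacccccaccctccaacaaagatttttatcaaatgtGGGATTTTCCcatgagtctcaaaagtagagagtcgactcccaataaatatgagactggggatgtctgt
Mif: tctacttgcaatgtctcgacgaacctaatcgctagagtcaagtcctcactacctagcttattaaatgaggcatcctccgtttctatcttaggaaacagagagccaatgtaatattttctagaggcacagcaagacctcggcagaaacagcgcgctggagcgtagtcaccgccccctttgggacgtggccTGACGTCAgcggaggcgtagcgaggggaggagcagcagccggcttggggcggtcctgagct
The only other NF-kB consensus match among the 10 windows found for 9 of the genes was in Il1r1. Csf1 had no entry and is named only.

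**Figure D2:**
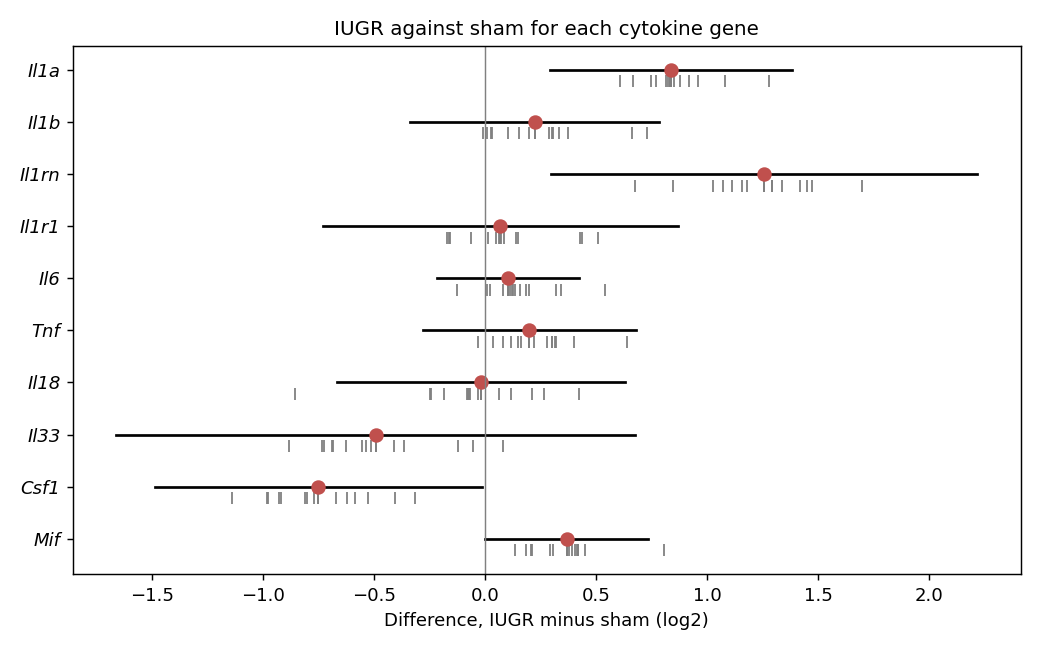
Difference between IUGR and sham litters (log2, horizontal axis) for each cytokine gene, with the point at the limma estimate, the bar at its 95% interval and grey ticks at the values under each processing alternative. The intervals of Il1a, Il1rn and, barely, Mif (from 0.0009) lie above 0 and that of Csf1 below it, while no gene passed the threshold after adjustment over all genes.

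The calls depended on how background and array quality were treated. With limma array weights, Il1a (0.75, adjusted p = 0.0236), Il1b (0.73, adjusted p = 0.0142) and Il1rn (1.07, adjusted p = 0.0336) passed, but so did 6358 of all genes, or 43.8%. These weights gave 7.82 to sham replicate 3 against 0.20 to sham replicate 4 and 0.26 to sham replicate 1. After subtraction of each array's olfactory receptor median, chosen as an alternative after the data were seen, Il1a (1.28, limma adjusted p = 0.0229), Il1rn (1.70, limma adjusted p = 0.0386) and Mif (0.81, limma adjusted p = 0.0398) passed. So did 2854 of all genes, and the median difference of all genes was then 0.48. The subtraction moved the difference of every gene by 0.44, and that shift is the whole of the rise in the differences of these 3 genes.

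A single litter held the highest value of 5 of the 10 genes. IUGR replicate 1 was the highest of the 8 litters for Il1a, Il1b, Il1rn, Il6 and Tnf, and it was highest for 9.09% of all genes. Of these 5, Il6 lay below the olfactory receptor level in that litter too. The same litter had the lowest Csf1 and the lowest means of the macrophage (8.92) and granulocyte markers (7.86, against 8.46 to 9.01 in the other IUGR litters and 8.58 to 9.13 in sham litters). Its mean of the 8 duct markers was the highest (11.38, against 10.94 to 11.07 in the other IUGR litters and 9.67 to 10.36 in sham litters). The genes whose deviations were closest to those of Il1rn were Cebpa and Bmp2, with mean absolute differences of 0.30 and 0.31. Both were highest in IUGR replicate 1, at 9.26 and 8.67. Their choice by likeness to Il1rn makes that likely, so it adds no further evidence about the litter. Without that litter the difference of Tnf was 0.036, that of Il1b 0.11 and that of Il1a 0.67. Sham replicate 1 held the highest value of 3 further genes, Il18, Il33 and Csf1, against 18.9% of all genes.

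**Figure D3:**
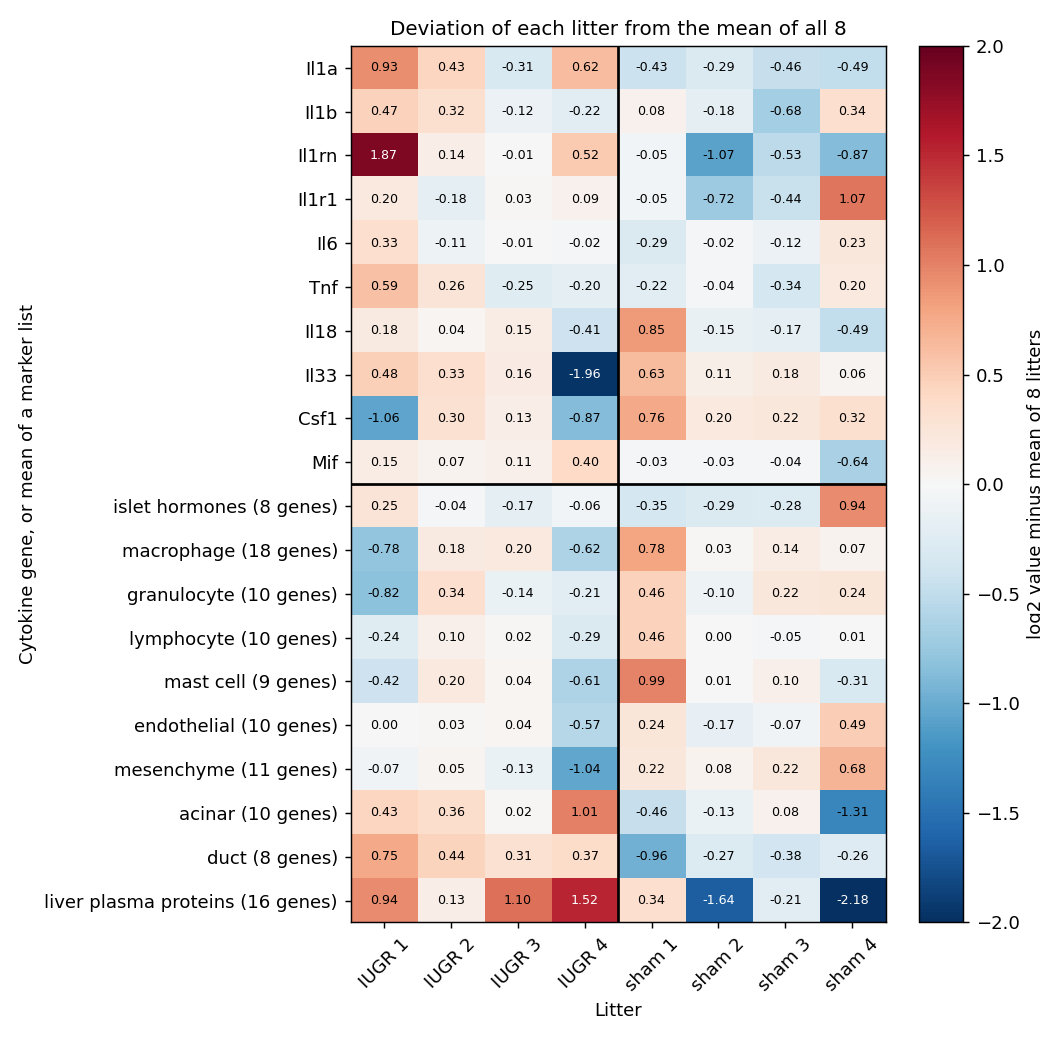
Log2 value of each cytokine gene (upper rows) and mean of each marker list (lower rows) in each litter, minus its mean over the 8 litters, with IUGR litters left of sham litters. Il1rn deviates by 1.87 in IUGR replicate 1 and Il33 by -1.96 in IUGR replicate 4, and Csf1 is low in the same IUGR litters (replicates 1 and 4) as the macrophage markers.

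Markers of several other cell types lay to one side on the same arrays, with 1 duct marker and no liver, acinar, endothelial or mesenchyme marker past the threshold that 0.248% of all genes passed. All 16 liver plasma protein genes, all 10 acinar and all 8 duct markers were higher in IUGR, against 55.1% of all genes. All 11 mesenchyme and all 10 endothelial markers were lower. Only 10 of the 16 liver and 8 of the 10 acinar genes lay above the olfactory receptor level on all 8 arrays. Granulocyte markers (2 higher, 8 lower) and mast cell markers (2 higher, 7 lower) were mixed. The mean of the duct markers was 10.94 to 11.38 in IUGR litters and 9.67 to 10.36 in sham litters, and that of the mesenchyme markers 10.60 to 11.69 in IUGR litters and 11.72 to 12.32 in sham litters, so that neither overlapped. The liver mean was 11.48 to 12.87 in IUGR litters and 9.17 to 11.69 in sham litters, and the acinar mean 10.90 to 11.90 in IUGR litters and 9.57 to 10.96 in sham litters, so that both overlapped. The endothelial means overlapped too. The part of these cells in the cytokine values was not tested. Of the lymphocyte markers 2 of 10 lay above the olfactory receptor level on all 8 arrays. Their mean was above that level in IUGR litters (7.15 to 7.55) and in sham replicate 1 (7.90). It was below the raised level of sham replicates 2, 3 and 4 (7.45, 7.40 and 7.45).

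The receptors, adaptors and targets of these cytokines were read from lists by role. Of 118 measured genes in 9 pathway lists, 55 were higher and 63 lower in IUGR, with a median difference of -0.015 beside 0.038 over all genes. None passed the threshold (limma), while 13 were higher and 5 lower at an unadjusted p under 0.05, a smaller share than the 26.1% of all genes. The groups did not overlap for 11 of the 118, 7 higher and 4 lower in IUGR, which is also a smaller share than the 15.5% of all genes.

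Of 13 further genes of the IL-1 family, 7 were higher and 6 lower, with 0 past the threshold. Sigirr, which encodes an inhibitory receptor of the family, came closest. It had 9.72, 9.33, 9.43 and 9.53 in IUGR replicates 1 to 4 against 8.79, 8.47, 8.64 and 8.85 in sham replicates 1 to 4. The groups were well apart, and the difference was 0.81 ± 0.12 (SE, n = 4 each, limma adjusted p = 0.052). It passed without sham replicate 1 (0.85, limma adjusted p = 0.0097), as did 2738 of all genes. Without sham replicate 4 it passed (0.87, limma adjusted p = 0.0408) with 157 genes called. Without the 30% dimmest genes it passed (0.81, limma adjusted p = 0.0424) with 59 called, and after floor subtraction (0.89, limma adjusted p = 0.0311) with 261. Sigirr also passed with array weights and after subtraction of the olfactory receptor median, where 6358 and 2854 genes were called. It did not pass after quantile normalization (0.57, limma adjusted p = 0.142) or median centring (0.58, limma adjusted p = 0.093). The difference was 0.71 with sham replicate 1 as the only sham litter. Il1rap, the accessory chain of the receptor, differed by 0.97 ± 0.26 (SE, limma adjusted p = 0.112), and Tollip, an inhibitor of the pathway, by 0.52 ± 0.14 (SE, limma adjusted p = 0.115). The IL-33 receptor gene Il1rl1 differed by -0.65, or -0.37 without sham replicate 1 and -0.42 without IUGR replicate 4. The IL-18 receptor gene Il18r1 differed by 0.41, but by 0.031 without IUGR replicate 1, which had 8.25 against 6.52 to 6.90 in the other IUGR litters. The decoy receptor gene Il1r2 differed by 0.22, or -0.030 without IUGR replicate 1, and the IL-18 inhibitor gene Il18bp by -0.085, or -0.0095 without IUGR replicate 2. Of the 8 arrays, Il18r1 lay above the olfactory receptor level on only 4 and Il1r2 on 5.

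Among 11 genes of the inflammasome and cytokine processing, 6 were higher and 5 lower, with 0 past the threshold. Casp1, the protease that matures IL-1 beta and IL-18, had 8.50, 8.54, 8.18 and 7.57 in IUGR replicates 1 to 4 against 9.72, 8.82, 8.47 and 8.63 in sham replicates 1 to 4. The groups overlapped by 2 IUGR litters above the lowest sham litter, and the difference was -0.71 ± 0.31 (SE, limma adjusted p = 0.196), or -0.44 without sham replicate 1. Txnip differed by 0.26, or 0.029 after median centring. Aim2, which lay below the olfactory receptor level on all 8 arrays, differed by -0.17. The Aim2 difference was -0.097 without sham replicate 1 and -0.11 without IUGR replicate 1. Of 10 genes of MyD88 and IRAK signalling 7 were higher, with 0 past the threshold and a median of 0.092. Peli1, a ubiquitin ligase that acts on IRAK proteins, differed by 0.41 ± 0.11 (SE, limma adjusted p = 0.109) with no overlap. Tab1 differed by 0.43 (0.27 without sham replicate 4), narrowly without overlap, and the kinase gene Irak4 by 0.48 with overlap. With sham replicate 1 as the only sham litter, Peli1 differed by 0.46, Tab1 by 0.061 and Irak4 by -0.024.

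The TNF receptor list had 11 of 17 genes higher and 6 lower, with 0 past the threshold and a median of 0.14. Tnfrsf1a, the main TNF receptor, had a difference of -0.16 ± 0.13 (SE, limma adjusted p = 0.461), or -0.076 without sham replicate 1 and -0.081 without IUGR replicate 4. Tnfrsf1b, the receptor carried mainly by leukocytes and endothelium, differed by -0.54 ± 0.23 (SE, limma adjusted p = 0.193). Traf2, an adaptor of both, differed by 0.57 ± 0.14 (SE, limma adjusted p = 0.096), and Lta, which lay below the olfactory receptor level on all 8 arrays, by -0.23. In the IL-6 family list 7 of 18 genes were higher and 11 lower, with 0 past the threshold. Il6st, which encodes gp130, was bright and differed by -0.051 ± 0.16, and Il6r by -0.20 ± 0.23 (SE), or -0.0032 without sham replicate 1 and -0.39 without sham replicate 2. Socs1 differed by 0.27, Clcf1 by 0.23 and Cebpb by 0.30. After median centring these were 0.038, 0.0029 and 0.064, and after quantile normalization 0.025, 0.33 and 0.10. Clcf1 lay above the olfactory receptor level on only 5 of 8 arrays.

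On the deposited values most genes of the list of colony stimulating factors and receptors, and most MIF partners, were lower in IUGR. Some were only slightly lower, and 0 passed the threshold in either list. Of 10 colony stimulating factor and receptor genes 9 were lower, and 10% were higher against 55.1% of all genes. The list median was -0.16, and Csf2rb (-0.015) and Csf2 (-0.027) differed little. Csf1r, the receptor of macrophages, had 10.03, 10.95, 11.11 and 10.20 in IUGR replicates 1 to 4 against 11.51, 10.92, 11.03 and 11.10 in sham replicates 1 to 4. It was lowest in the same IUGR litters as Csf1, and its difference was -0.57 ± 0.26 (SE, limma adjusted p = 0.210). Csf3r differed by -0.73, Kit by 0.42 and Il34, the other ligand of the Csf1r product, by -0.040. Il34 lay above the olfactory receptor level on only 2 of 8 arrays. After subtraction of the olfactory receptor median, which moved every difference by 0.44, Csf1r was -0.13, Csf3r -0.30 and Il34 0.40. Of 6 MIF partners 5 were lower, and 16.7% were higher against 55.1% of all genes. Ddt, the gene of a MIF homologue, was the exception, with a difference of 0.69 ± 0.23 (SE, limma adjusted p = 0.139), or 0.46 without sham replicate 4, and no overlap. The MIF receptor gene Cd74 differed by -0.65, or -0.31 without IUGR replicate 4. Its partner gene Cd44 differed by -0.16, or -0.025 without IUGR replicate 4 and -0.041 without sham replicate 4. Cxcr2, above the olfactory receptor level on only 4 of 8 arrays, differed by -0.47. Without sham replicate 1 the Cxcr2 difference was -0.20, and without sham replicate 2 it was -0.72. After the olfactory receptor subtraction Cd74 was -0.21, Cd44 0.28 and Cxcr2 -0.036.

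NF-kB genes and targets did not pass either. Of 13 NF-kB subunit and inhibitor genes 8 were higher and 5 lower, with a median of 0.15 over the whole list. Nfkbia, an inhibitor gene that NF-kB itself induces, had 11.48, 11.17, 11.41 and 11.28 in IUGR replicates 1 to 4 against 11.30, 11.10, 11.31 and 11.68 in sham replicates 1 to 4. The groups overlapped fully, with a difference of -0.016 ± 0.13 (SE, limma adjusted p = 0.949). Ikbkg differed by 0.32, Nfkb2 by 0.36 (0.22 without sham replicate 2) and Chuk by 0.34 (0.21 without sham replicate 4). After median centring Ikbkg was 0.087, Nfkb2 0.13 and Chuk 0.11. Of 20 genes known to be induced by IL-1 and TNF in islets, 7 were higher and 13 lower, with a median of -0.12 and 0 past the threshold. Ptges, the inducible prostaglandin E synthase gene, had the largest positive difference there at 1.21 ± 0.23 (SE, limma adjusted p = 0.072), with 9.37 to 10.15 in IUGR litters and 8.17 to 9.01 in sham litters. The chemokine gene Cxcl10 differed by -0.52 ± 0.16 (SE, limma adjusted p = 0.128) and the gelatinase gene Mmp9 by -1.07 ± 0.38 (SE, limma adjusted p = 0.145), and both had overlapping groups.

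**Figure D4:**
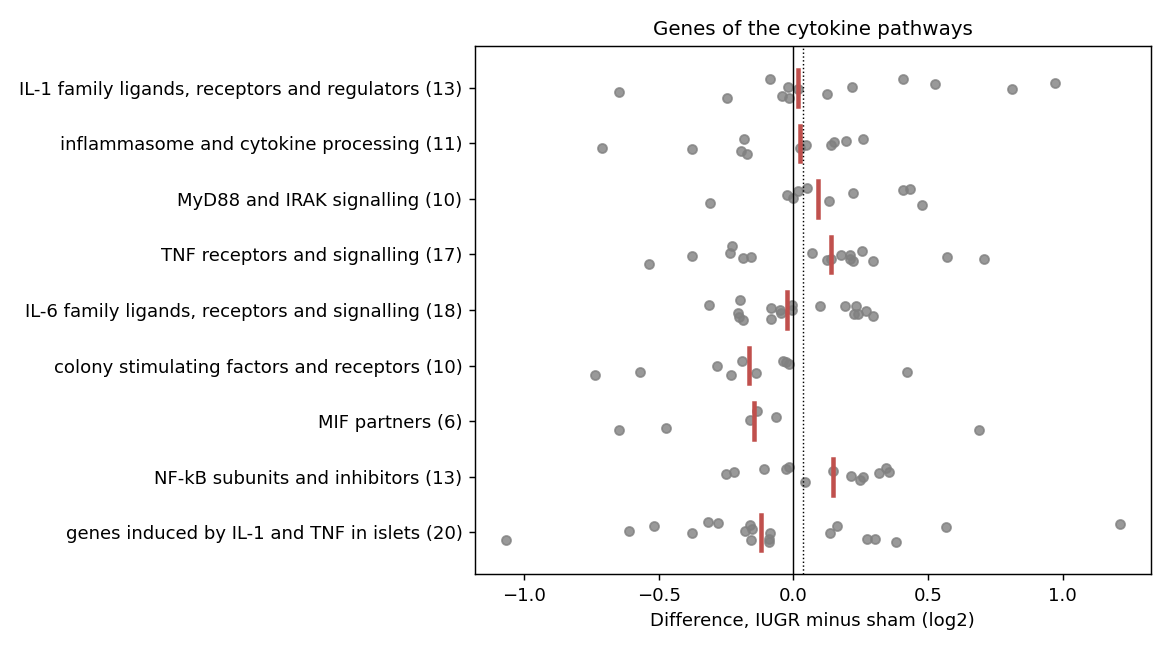
Difference between IUGR and sham litters (log2, horizontal axis) for each measured gene of the 9 pathway lists, with the number of genes in parentheses, red bars at the list medians and a dotted line at the median of all genes (0.038). List medians lie between -0.16 (colony stimulating factors and receptors) and 0.15 (NF-kB subunits and inhibitors), and no gene passed the threshold.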

How the data were processed

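RNA of each litter was labelled for a whole-transcript Affymetrix array. Per the submitters' processing notes the authors used RMA, and the deposited values are on the log2 scale. Its version is not given in the sources used. Of 29214 probe sets, 15310 had exactly 1 gene in the platform annotation, and 15279 of these matched a current RefSeq gene. Where a gene had several probe sets, the one of highest mean was kept, leaving 14506 genes. The log2 values were tested as deposited with limma 3.58.1 in R 4.3.3 (lmFit, eBayes, 2 groups, no covariate, 8.21 degrees of freedom), with two-sided p-values adjusted by Benjamini and Hochberg over all genes. The fit was tested on simulated data. The array floor and olfactory receptor levels were computed per array in Python. The cytokine genes and lists were chosen with earlier results of these data known. Named were the 10 members, 15 set receptors and partners, 3 genes of smallest p per list, any list gene past the threshold, and 2 genes of most similar pattern for the 3 members of widest range. Replicate numbers did not pair the litters. Alternatives were quantile normalization, median centring, floor subtraction, a filter on dim genes, another prior, array weights, a replicate block, other probe set rules and leaving out litters. The number of arrays limits the precision.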

Additional observations from a re-analysis of the deposited data

Results flagged for a closer look

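In 8 instances 1 litter stood apart from the other 3 of its group, its gap to the nearest of them taking up most of the group's range (Dixon's 95% criterion). With 106 groups looked at over the 53 named genes, chance alone would flag about 1 in 20. Among the cytokine genes, Il33 was 7.50 in IUGR replicate 4, against 9.63 to 9.95 in the other IUGR litters, and Mif was 12.23 in sham replicate 4, below the 12.84 to 12.85 of its group. In sham replicate 1, Irak4 (8.47), Traf2 (8.94), Kit (9.64) and Laptm5 (11.26) stood above the other sham litters. Il34 was 6.95 in sham replicate 4, above the 6.54 to 6.58 of its group. Aim2 was 5.50 in IUGR replicate 1, against 5.74 to 5.75 in the other IUGR litters, near the array floor.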

How the results depend on the processing

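Of 188 values of the cytokine genes over 19 alternatives, 169 kept direction and side of the threshold, 6 newly passed and 13 reversed. Of 812 values of the other named genes, 727 kept both. The dim-gene filter, the other prior, the replicate block and the other probe set rules left the differences of the cytokine genes unchanged. Direction could not reverse in those alternatives, so the 169 overstates how far direction was tested. All genes gave 36 calls, but 0 after quantile normalization, 1 (lower in IUGR) after median centring, 261 after floor subtraction, 59 without the 30% dimmest genes, 6358 with array weights, 2854 after subtraction of the olfactory receptor median, 0 with sham replicate 1 as the only sham litter and 0 to 2738 when 1 litter was left out, the most without sham replicate 1. Replicate numbers did not pair the litters (correlations of -0.43 to 0.095), and the fit with the replicate block gave 0 calls (2715 at an unadjusted p under 0.05) and 0 cytokine genes. Cytokine genes called were 3 with array weights and 3 after olfactory receptor subtraction, and 0 to 0 when 1 litter was left out. Pathway genes called were 2 after floor subtraction, 1 without dim genes, 38 with array weights, 16 after olfactory receptor subtraction and 0 to 11 when 1 litter was left out. The median distance of the cytokine genes from the floor was 3.26, or 2.85 from the olfactory receptor median. Directions reversed after median centring for Il1b (-0.0071), Il1r1 (-0.16), Il6 (-0.13), Tnf (-0.031) and Il1r2 (-0.013), after quantile normalization for Il1r1 (-0.17), Il34 (0.10) and Aim2 (0.029), and after floor subtraction for Il18 (0.065), Il6st (0.030), Il34 (0.041) and Nfkbia (0.065). With array weights they reversed for Il18 (0.21), Il6st (0.12), Tnfrsf1a (0.068), Il34 (0.076), Cd44 (0.11), Nfkbia (0.032) and Clic5 (0.077). After olfactory receptor subtraction they reversed for Il18 (0.42), Il18bp (0.35), Il6r (0.24), Il6st (0.39), Tnfrsf1a (0.28), Il34 (0.40), Cd44 (0.28), Nfkbia (0.42), Aim2 (0.27), Lta (0.21), Clic5 (0.11) and Samd9l (0.13). With sham replicate 1 alone they reversed for Il1r2 (-0.24), Il34 (0.076), Nfkbia (0.031), Irak4 (-0.024), Kit (-0.12) and Chuk (-0.028). Leaving out 1 litter gave -0.16 to 0.44 for Il1r1, -0.18 to 0.26 for Il18, -0.74 to 0.080 for Il33, -0.030 to 0.37 for Il1r2, -0.15 to 0.074 for Il6st, -0.078 to 0.058 for Il34, -0.097 to 0.094 for Nfkbia and -0.52 to 0.037 for Clic5. The cause was not tested. The olfactory receptor subtraction and the fit with sham replicate 1 alone were chosen after seeing the data; in the second, the lone sham litter is assumed to vary like the IUGR litters. Il1a and Il6 had no value without dim genes. Median centring moved the median of all genes by -0.23, the dim-gene filter by 0.11 and olfactory receptor subtraction by 0.44. Signal near background limits Il1a, Il6, Tnf and Il1rn, and 4 litters per group limit every difference.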
